A study of Mus musculus with 13 samples.

Results

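The genes described here are the 10 nicotinic acetylcholine receptor subunits that lie outside the Chrna3, Chrna5 and Chrnb4 cluster of mouse chromosome 9: Chrna1, Chrna2, Chrna4, Chrna6, Chrna7, Chrna9, Chrna10, Chrnb1, Chrnb2 and Chrnb3. They were taken by gene symbol, as the remaining subunits known from brain or muscle, and the rule that names them uses no measured value. All 10 were among the 22682 symbols that the tables of all libraries list.

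The study profiled mRNA on the ribosomes of cholinergic neurons in the medial habenula by translating ribosome affinity purification (TRAP), in which polysomes carrying a GFP-tagged ribosomal protein are pulled down with anti-GFP beads. Knockout immunopurified (IP) libraries (6) came from Gpr151-KO mice that also carried the Chat-TRAP DW167 transgene, wild-type IP libraries (6) from Chat-TRAP DW167 mice, and a single input library (1) from the total homogenate of wild-type Chat-TRAP DW167 mice. All mice were adults over 8 weeks of age, all carried the transgene, and the labels give no treatment. Names of the deposited tables refer to saline for most libraries and to saccharin as well for the input, so the input mice may have been treated differently from the IP mice, and each ratio of IP over input below carries that limit. Each library pooled 4 mice, or 3 mice for the libraries numbered 852 and 855, so replicates are separate pools and no value belongs to a single animal. The transgene marks cells by Chat, so the purified RNA stands for the cells of the dissected piece that express it and for whatever RNA is carried along.

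Reads assigned to genes numbered 32623249 to 64388596 in knockout IP libraries, 28375912 to 58502055 in wild-type IP libraries and 54701790 in the input. Levels are CPM, read counts scaled to a common library total, over the 22682 shared symbols, and a count of 0 allowed up to 0.0502 to 0.121 CPM per IP library (3 counts, counting error only). The labelled cell type was checked by its markers: all 7 of 7 medial habenula cholinergic markers were at least 2-fold above input in every IP library of both genotypes, their log2 ratios to the input having medians of 2.78 in knockout and 3.04 in wild type. Gpr151, the gene targeted in the knockout, averaged 155 ± 42.3 CPM in knockout libraries and 479 ± 95.6 CPM in wild-type IP libraries (SD, n = 6 each), against 66.2 CPM in the input. Libraries 1099 and 1102 (knockout) and 1091 (wild type) stood apart with the highest scores of 31 non-neuronal markers, 4.09, 3.78 and 3.35 as mean log2 CPM, against 1.13 to 2.69 in the other 9 IP libraries and 4.67 in the input.

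Nicotinic receptors are cation channels built from a ring of subunits around a pore, opened by acetylcholine or nicotine. Alpha subunits carry a pair of adjacent cysteines at the ligand site, and alpha subunits combine with beta subunits in most neuronal receptors, whereas alpha 7 can form channels alone. The medial habenula is known for its dense receptors of the alpha 3, beta 4 and alpha 5 subunits, and its axons to the interpeduncular nucleus are a site of nicotine aversion. The subunits outside that cluster include those of the widespread high-affinity brain receptor, those typical of dopaminergic and visual pathways, and those of the hair cell and of muscle.

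The stretch that names the superfamily is the Cys-loop, whose coding bases are shown because it is common to all members and lets their likeness, which bears on the assignment of reads to paralogs, be seen. Sequences run 5′ to 3′ on the coding strand of the GRCm38 genome, with the codons of the bounding cysteines in capitals.
Chrnb3: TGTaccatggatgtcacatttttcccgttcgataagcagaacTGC
Chrna6: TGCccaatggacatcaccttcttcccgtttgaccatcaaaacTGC
Chrna4: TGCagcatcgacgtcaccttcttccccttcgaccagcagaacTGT
Chrna2: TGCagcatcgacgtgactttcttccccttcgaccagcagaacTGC
Chrnb2: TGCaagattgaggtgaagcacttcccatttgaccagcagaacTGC
Chrna7: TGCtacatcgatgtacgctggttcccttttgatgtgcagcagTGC
These stretches lie at chr8:27393711-27393755 (plus strand) for Chrnb3, chr8:27407332-27407376 (minus) for Chrna6, chr2:181029431-181029475 (minus) for Chrna4, chr14:66148884-66148928 (plus) for Chrna2, chr3:89761500-89761544 (minus) for Chrnb2 and chr7:63107658-63107702 (minus) for Chrna7, each within 1 coding exon. Over the 45 pairs among the 10 subunits, the loop's 45 bases were identical at 55.6% to 93.3%, with a median of 66.7%. Chrna2 and Chrna4 were the most alike pair, at 93.3%, and their transcripts share an exact run of 47 bases, the longest of the 78 pairs among these 10 and the 3 cluster subunits. Chrnb3 shares at most 19 bases in a row on the same strand with any of the other 12 subunits, and that with Chrna3.

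The adjacent cysteine codons of the ligand site, again in capitals, divide the subunits by name. They were found in 7 of 7 alpha members and in 0 of 3 beta members.
Chrna4: aagtatgaaTGCTGTgccgagatc
Chrna6: aagtacaacTGCTGTgaagagatt
Chrna7: ttctatgaaTGCTGCaaagagcca
Thus, of the abundant members described next, Chrna4 codes for the ligand-site cysteines, while Chrnb3 and Chrnb2 do not.

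Only 3 of the 10 subunits were abundant in the purified RNA: Chrnb3, Chrna4 and Chrnb2. Chrna7, Chrnb1 and Chrna6 were present at a few CPM in every IP library, Chrna1 reached at most 1.03 CPM, and Chrna10, Chrna9 and Chrna2 were at or near 0. In bulk samples such as these, fewer cells of a type and less RNA per cell cannot be told apart.

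**Figure D1:**
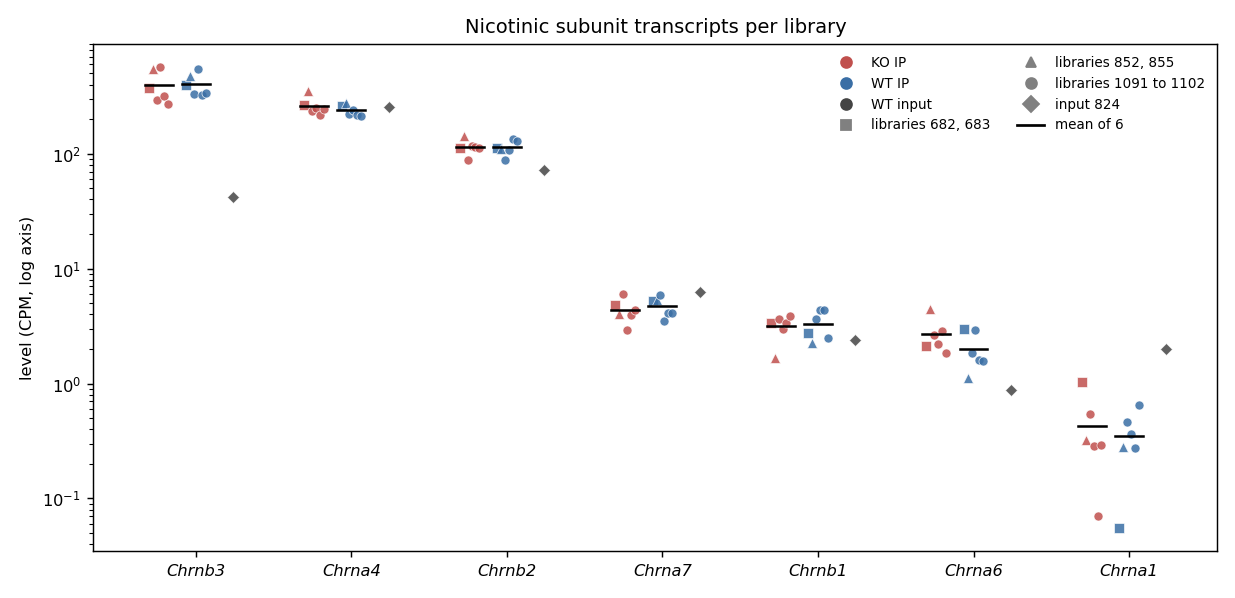
Level of the 7 subunits detected in every library, in CPM on a log axis, with knockout IP libraries in red, wild-type IP libraries in blue and the input in grey; each symbol is 1 library, its shape gives the library set, and bars are means of 6. Knockout and wild-type points overlap for each subunit, and Chrnb3 lies at 269 to 568 CPM in the IP libraries against 41.7 CPM in the input.

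Chrnb3 codes for an accessory beta subunit that joins receptors without forming the classical ligand site, and in dopaminergic neurons it often accompanies alpha 6. The gene lies at chr8:27368711-27399730 on the plus strand. Its lowest, median and highest levels were 269, 345 and 568 CPM in knockout IP libraries and 327, 367 and 551 CPM in wild-type IP libraries, against 41.7 CPM in the input. Every IP library was more than 6-fold above the input, and the genotypes overlapped almost completely. The highest values belonged to library 1100 (knockout, 568 CPM), library 1092 (wild type, 551 CPM) and library 855 (knockout, 546 CPM).

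Chrna6, the alpha subunit most often paired with Chrnb3 in midbrain dopamine neurons, is the downstream neighbour of that gene: it lies at chr8:27403212-27413944 on the minus strand, and 3481 bases separate the ends of the genes. The neighbours differed widely in level. Chrna6 had 1.85, 2.42 and 4.45 CPM (lowest, median and highest) in knockout IP libraries and 1.13, 1.73 and 2.96 CPM in wild-type IP libraries. The input held 39 Chrna6 reads, or 0.884 CPM (exact 95% interval 0.629 to 1.21), so 11 of 12 IP libraries were above that interval and wild-type library 852 lay inside it at 1.13 CPM. Per kilobase of exon, Chrna6 stood at a median of 1.65% of Chrnb3 in knockout and 1.12% in wild-type IP libraries, against 4.65% in the input. Dopaminergic markers were measured beside this pair: the summed level of Th, Slc18a2 and Slc6a3 was 58.6 to 93.0 CPM in knockout libraries, 62.5 to 100.2 CPM in wild-type libraries and 23.4 CPM in the input. The genes of that list differed: Th, which makes the dopamine precursor, averaged 11.2 CPM in knockout libraries and 13.8 CPM in wild-type libraries, against 3.56 CPM in the input, and the vesicular monoamine transporter Slc18a2 averaged 59.2 CPM in knockout libraries and 64.2 CPM in wild-type libraries, against 19.6 CPM in the input. The dopamine transporter Slc6a3 averaged 0.0502 CPM in knockout libraries and 0.181 CPM in wild-type libraries, against 0.249 CPM in the input. Of these genes 2 reached 5 CPM, of which 1 was at least 2-fold above the input in every knockout library and 2 in every wild-type library.

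Chrna4 and Chrnb2 form the most common high-affinity nicotine receptor of the brain. Chrna4 (chr2:181018380-181043546, minus strand) had 216, 247 and 355 CPM (lowest, median and highest) in knockout IP libraries and 215, 231 and 274 CPM in wild-type IP libraries, against 255 CPM in the input. The genotypes overlapped, and the input lay within both ranges. Chrnb2 (chr3:89746195-89764632, minus strand) had 88.8, 113 and 142 CPM in knockout and 88.9, 112 and 134 CPM in wild-type IP libraries, against 72.3 CPM in the input. Its genotypes overlapped as well, while the input lay below all 12 IP libraries. The coefficient of variation was 14.8% in knockout and 14.2% in wild type for Chrnb2, 18.6% in knockout and 10.2% in wild type for Chrna4, and 33.0% in knockout and 22.9% in wild type for Chrnb3. The ends of Chrnb2 and of Adar, a gene on the opposite strand coding for an RNA-editing enzyme, share 1365 exonic bases. Adar averaged 135 ± 41.0 CPM in knockout libraries and 138 ± 29.6 CPM in wild-type IP libraries (SD, n = 6 each), against 53.8 CPM in the input. The sources used here do not say if counting took account of strand, so how reads of the shared bases were assigned was not tested.

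Chrna7 codes for the subunit of the homomeric, calcium-permeable receptor that binds alpha-bungarotoxin. It lies at chr7:63098692-63212569 on the minus strand and had 2.93, 4.21 and 5.97 CPM in knockout IP libraries and 3.52, 4.67 and 5.89 CPM in wild-type IP libraries (lowest, median and highest), against 6.28 CPM in the input. All 12 IP libraries lay below the input value, and the genotypes overlapped.

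Of the muscle receptor, Chrnb1, its beta subunit (chr11:69784036-69795943, minus strand), was read in every library. It had 1.67, 3.36 and 3.87 CPM in knockout and 2.25, 3.19 and 4.37 CPM in wild-type IP libraries, against 2.38 CPM in the input. Its ligand-binding partner Chrna1 (chr2:73563215-73580338, minus strand) was lower in every IP library than in the input, which held 88 reads or 1.995 CPM. Chrna1 had 3 to 41 reads per knockout IP library and 2 to 26 per wild-type IP library, that is 0.0699, 0.306 and 1.03 CPM (lowest, median and highest) in knockout libraries and 0.0554, 0.322 and 0.646 CPM in wild-type libraries. The 3 other muscle subunits were almost unread. Chrne had 11 reads in knockout library 1099 and 0 in the other 12 libraries, Chrnd had 1 read in knockout library 855 and 2 in the input, and Chrng had 0 in all IP libraries and 5 in the input. Skeletal muscle markers (4 of 4 listed were measured, none at 0 in all IP libraries) summed to 2.02 to 4.06 CPM in knockout libraries, 1.64 to 3.93 CPM in wild type and 4.65 CPM in the input.

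The 3 remaining subunits gave 16 reads in the 12 IP libraries together. Chrna10, which with alpha 9 forms the receptor of cochlear hair cells (chr7:102111266-102116828, minus strand), had 1, 3 and 3 reads in 3 of the 6 knockout libraries and 0 in the others, and 3 reads in 1 wild-type library (1094), against 6 in the input. Chrna10 shares 1025 exonic bases with Art1 on the opposite strand. Chrna9 (chr5:65934921-65977326, plus strand) had 1 read in knockout library 1099, 4 in wild-type library 1091 and 1 in the input, so both IP libraries with reads were among those with high non-neuronal scores. Chrna2, known from the interpeduncular nucleus and from a class of hippocampal interneurons (chr14:66135039-66152948, plus strand), had 0 reads in knockout, 1 read in wild-type library 1093 and 0 in the input. Non-unique reads stayed out of the counts, so a read lying wholly within the 47-base run that Chrna2 shares with Chrna4 would not be counted. The origin of that single Chrna2 read was not tested.

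Levels of different genes can be set in order only per length. Per kilobase of merged exons, the means of the 12 IP libraries were 62.6 ± 16.9 CPM per kb for Chrnb3, 49.7 ± 7.69 for Chrna4, 13.6 ± 1.89 for Chrnb2, 1.28 ± 0.327 for Chrnb1, 1.00 ± 0.208 for Chrna7, 0.807 ± 0.306 for Chrna6 and 0.0877 ± 0.0604 for Chrna1 (SD over libraries). Chrnb3 exceeded Chrna4 in 10 of 12 libraries, but their ranges overlapped, as did those of Chrnb1, Chrna7 and Chrna6 with each other. The ranges of Chrna4 and Chrnb2, of Chrnb2 and Chrnb1, and of Chrna6 and Chrna1 did not overlap. With the length of the longest transcript in place of merged exons, Chrnb3 (86.9 CPM per kb) exceeded Chrna4 (54.7) in 12 of 12 libraries, and Chrna7 (1.61) ranked above Chrnb1 (1.499). With coding length, chosen after the data were seen, Chrnb3 stood at 287, Chrna4 at 132 and Chrnb2 at 76.0 CPM per kb of coding sequence, with no overlap between neighbours. On the same scale of merged exons the cluster subunits averaged 253 CPM per kb in knockout and 255 in wild type for Chrna3, 315 in knockout and 334 in wild type for Chrnb4, and 1.39 in knockout and 1.69 in wild type for Chrna5, so that Chrna5, the accessory subunit of the cluster, stood near Chrna7 and Chrnb1.

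The make-up of the 10 subunits differed between purified RNA and input. Chrnb3 held a mean of 46.6% of their summed CPM per kb in knockout and 49.2% in wild-type IP libraries, against 9.46% in the input. Chrna4 held 40.2% in knockout and 37.5% in wild type, against 73.5% in the input, and Chrnb2 held 10.6% in knockout and 10.9% in wild type, against 12.5% in the input. Each of the other 7 held at most 1.52% in any IP library. The ratio of Chrna4 to Chrnb2 per kb had a median of 3.80 in knockout and 3.79 in wild type, against 5.89 in the input, and the highest IP library reached 4.45. With coding length it was 1.82 in knockout and 1.81 in wild type, against 2.81 in the input. The 10 members made up 19.3% of the summed CPM per kb of all 13 subunits in knockout and 17.9% in wild type, against 59.5% in the input.

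**Figure D2:**
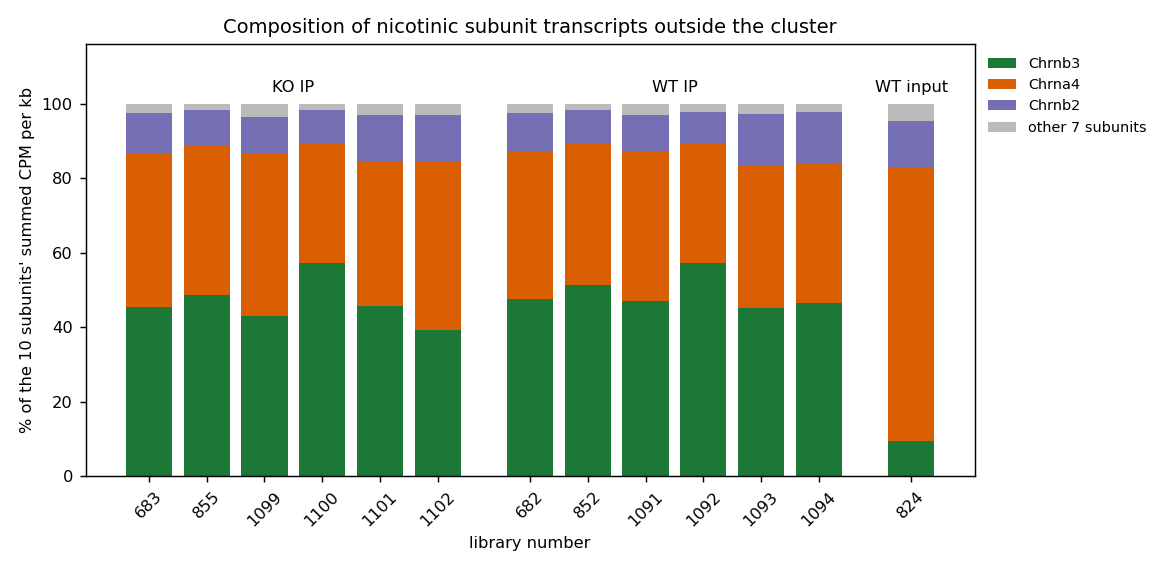
Share of each subunit in the summed CPM per kb of the 10 subunits, in percent, with 1 bar per library: knockout IP libraries on the left, wild-type IP libraries in the middle and the input on the right. Chrnb3 takes 39.3% to 57.3% in every IP library and 9.46% in the input.

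Set against the input, Chrnb3 was the only member enriched by the rule used for all genes, which asks that every IP library of a genotype be at least 2-fold above the input (log2 of CPM + 1) and that the gene reach 5 CPM. Among all genes that reached 5 CPM, 3.41% were enriched and 7.11% depleted (at least 2-fold below input in every library) in knockout IP libraries, and 4.71% were enriched and 11.1% depleted in wild-type IP libraries. Without knockout libraries 1099 and 1102, 629 of 11432 genes were enriched and 1523 depleted in knockout, in place of 389 and 810 of 11399. Fewer libraries make a rule over every library easier to meet. With TMM scaling 510 genes were enriched and 533 depleted in knockout, and 703 were enriched and 917 depleted in wild type. Of the 10 members 4 reached 5 CPM (Chrna4, Chrna7, Chrnb2 and Chrnb3); in each genotype 1 of them was enriched and 0 were depleted. With 1 input library the rule describes size and is not a test.

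The median log2 ratio of Chrnb3 was 3.02 in knockout (2.66 to 3.74) and 3.10 in wild type (2.94 to 3.69), a value that 99.2% of genes lay below in both genotypes. On the same scale the cluster genes Chrna3 and Chrnb4 had 3.81 and 3.43 in knockout and 3.77 and 3.53 in wild type. The range of Chrnb3 over libraries overlapped those of both, but within each IP library Chrna3 had a higher ratio than Chrnb3. Chrnb4 had a higher ratio than Chrnb3 in every IP library except knockout library 1099 (2.70 against 2.80). Chrna5 had 1.82 in knockout, where it did not reach 5 CPM, and 2.13 in wild type. Across the 12 IP libraries, the 3 genes whose log2 ratios lay closest to those of Chrnb3, by root mean square difference among 11419 genes, were Lrrc55, an auxiliary subunit of large-conductance potassium channels (0.14), Slc5a7, the high-affinity choline transporter (0.19), and Wfikkn2, a secreted protein with protease-inhibitor domains (0.23). Chrnb4 ranked 9 (0.31) and Chrna3 ranked 70 (0.59) by the same measure.

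Chrnb2 was modestly above the input in 12 of 12 IP libraries and at least 2-fold above it in 0. Its log2 ratio had a median of 0.64 in knockout (0.29 to 0.96) and 0.62 in wild type (0.29 to 0.88). Adar, whose exons overlap those of Chrnb2, was above the input in every IP library as well (log2 ratio 0.66 to 1.77). The part of Adar reads in the Chrnb2 ratio was not tested. Ambiguous reads made up 3.98% in the input and 0.581% to 1.36% per IP library, and the input table lists more symbols. The effect of this difference on the ratios was not tested. Chrna4, the receptor partner of Chrnb2, stayed at the level of the input. The log2 ratio of Chrna4 had a median of -0.05 in knockout (-0.24 to 0.47) and -0.14 in wild type (-0.25 to 0.10), with 2 libraries of each genotype above the input. Chrna7 lay below the input in all 12 libraries on this scale, with a median of -0.48 in knockout and -0.37 in wild type. Among the members that did not reach 5 CPM, Chrna6 was above the input in 12 of 12 libraries (median 0.86 in knockout and 0.53 in wild type) and Chrna1 below it in 12 of 12 (median -1.20 in knockout and -1.18 in wild type); the added 1 CPM pulls such ratios toward 0.

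The sign for Chrna4 depended on scaling. The median log2 ratio of all genes was -0.11 in knockout and -0.07 in wild type with totals over shared genes, and 0.13 in knockout and 0.16 in wild type with TMM factors; the TMM medians of Chrna4 were 0.20 in knockout and 0.14 in wild type, so that it stayed near the median gene under both. Under TMM, Chrnb2 had 0.86 in knockout and 0.85 in wild type, Chrnb3 3.22 in knockout and 3.33 in wild type, and Chrna7 -0.29 in knockout and -0.20 in wild type, with its highest library above the input in each genotype (0.18 and 0.16). In an edgeR quasi-likelihood fit, wild-type IP over input was 3.47 ± 0.54 for Chrnb3, 0.85 ± 0.27 for Chrnb2, 0.10 ± 0.25 for Chrna4 and -0.22 ± 0.39 for Chrna7 (log2 ± SE). The scarcer members had 1.38 ± 0.66 for Chrna6, 0.68 ± 0.54 for Chrnb1 and -2.30 ± 0.99 for Chrna1. These errors assume that the single input varies like the IP libraries, so no p-value is given.

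Markers of neighbouring cells were read on the same log2 scale. The thalamic list, measured because the habenula borders the thalamus, where Chrna4 is abundant, had a median of -1.83 in knockout and -2.30 in wild type, with 0 of 6 genes depleted in knockout and 3 of 6 in wild type. Its genes differed: Tcf7l2, a transcription factor of thalamic and habenular neurons, averaged 1377 CPM in knockout libraries and 1441 CPM in wild-type libraries, against 1711 CPM in the input, and Lef1, a related factor, averaged 77.9 CPM in knockout libraries and 84.4 CPM in wild-type libraries, against 86.5 CPM in the input. Rora, a nuclear receptor, averaged 526 CPM in knockout libraries and 349 CPM in wild-type libraries, against 1546 CPM in the input. The 6 genes, led by Tcf7l2, summed to 1642 to 2989 CPM in knockout libraries and 1710 to 2323 CPM in wild-type libraries, against 4088 CPM in the input. Lateral habenula markers had a median of -2.24 in knockout and -2.84 in wild type, astrocyte markers -2.57 in knockout and -3.23 in wild type, and oligodendrocyte markers -3.47 in knockout and -3.53 in wild type. Hippocampal markers went the other way, with a median of 1.43 in knockout and 1.497 in wild type. Of the 4 listed, 3 reached 5 CPM, of which 1 was enriched in each genotype and 1 was depleted in wild type. The 4 summed to 51.3 to 141 CPM in knockout libraries and 62.5 to 143 CPM in wild-type libraries, against 16.4 CPM in the input. No gene of these lists was at 0 in all IP libraries, and how much of Chrna4, Chrna7 or Chrna1 in the purified RNA came with them was not tested.

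**Figure D3:**
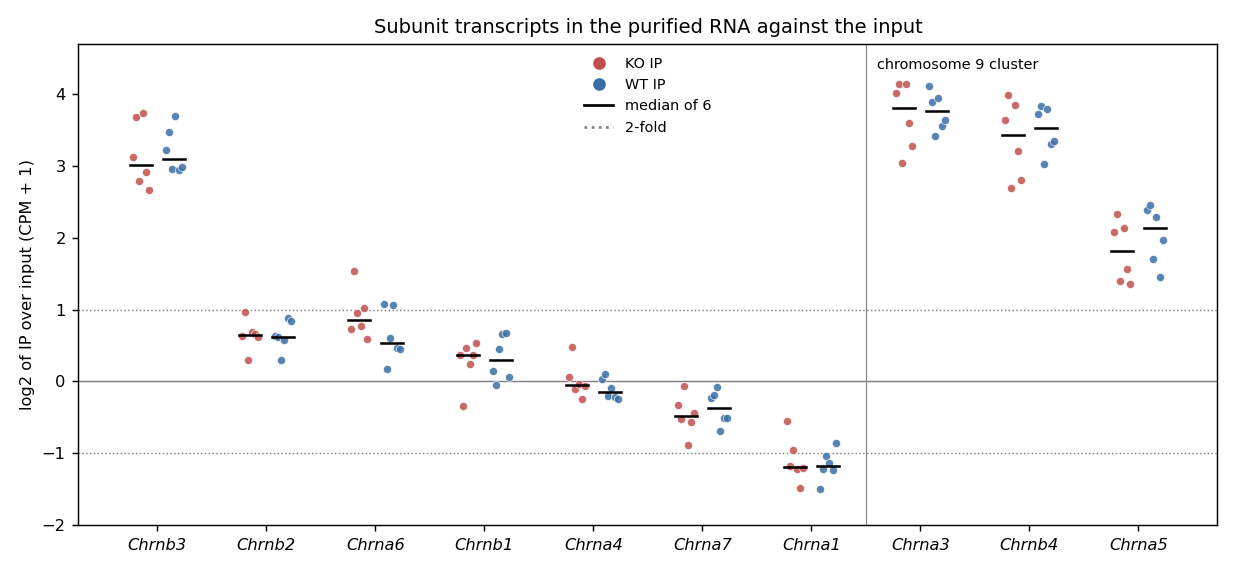
Log2 ratio of IP over input (CPM + 1) for 7 of the 10 subunits and the 3 subunits of the chromosome 9 cluster, with knockout libraries in red left of wild-type libraries in blue; each point is 1 IP library over the single input, black bars are medians of 6, and dotted lines mark 2-fold. Chrnb3 lies between 2.66 and 3.74, Chrnb2 between 0.29 and 0.96, and Chrna4 around 0.

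The question put to the genotypes was whether loss of Gpr151, an orphan receptor of habenular axons, changed what these neurons translate. Across the transcriptome few genes were called. In the edgeR quasi-likelihood test with library set as a term, 2 of 14317 genes (0.0140%) passed a Benjamini-Hochberg adjusted p of 0.05. Gpr151 was 1 of them, with a log2 change of -1.63 ± 0.17 (SE, adjusted p = 0.00592). Without knockout library 683 the count was 0, so that Gpr151 itself was not called. A gene that was not called is therefore not shown to be unchanged. Of the 10 subunits 7 had enough counts to be tested, and 0 were called by edgeR, by DESeq2 (12 genes called in all) or at an unadjusted p of 0.05 (438 genes in all). Their median log2 change was 0.02, with 4 above and 3 below 0, beside 0.0018 for all genes tested. The adjusted p was 0.999 for each of the 7 in edgeR, so what the data give is the interval within which a change would lie.

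The tightest interval was that of Chrna4. Its level averaged 261 ± 48.7 CPM in knockout libraries and 238 ± 24.4 CPM in wild-type IP libraries (SD, n = 6 each), and its log2 change was 0.14 (95% interval -0.07 to 0.34), or 1.10-fold with bounds of 0.955 and 1.27. Knockout exceeded the wild-type median in 5 of 6 libraries, but only 1 of them, library 855 at 355 CPM, lay above all wild-type libraries. For Chrnb2, which averaged 114 ± 17.0 CPM in knockout libraries and 114 ± 16.2 CPM in wild-type libraries (SD, n = 6 each), the log2 change was 0.02 (-0.24 to 0.27). For Chrnb3, which averaged 395 ± 130.2 CPM in knockout libraries and 403 ± 92.2 CPM in wild-type libraries (SD, n = 6 each), it was -0.03 (-0.46 to 0.39), bounds of 0.729-fold and 1.31-fold.

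The scarcer subunits had wider intervals. Chrna7 had a log2 change of -0.09 (-0.57 to 0.40) and Chrnb1 of -0.06 (-0.52 to 0.39). Chrna6 had the largest estimate, 0.41 (-0.28 to 1.11), with 6 of 6 knockout libraries above the wild-type median and 1 above all wild-type libraries. Its direction was not the same in each set of libraries: Chrna6 stood at 2.12 CPM in knockout library 683 and 2.96 CPM in wild-type library 682, while in the next set it stood at 4.45 CPM in knockout library 855 and 1.13 CPM in wild-type library 852. Chrna1 had 0.15 with an interval of -1.31 to 1.62, too wide to place it. Without libraries 1099, 1102 and 1091, an alternative chosen after the data were seen, 0 members were called as well, and Chrnb3 had 0.09.

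**Figure D4:**
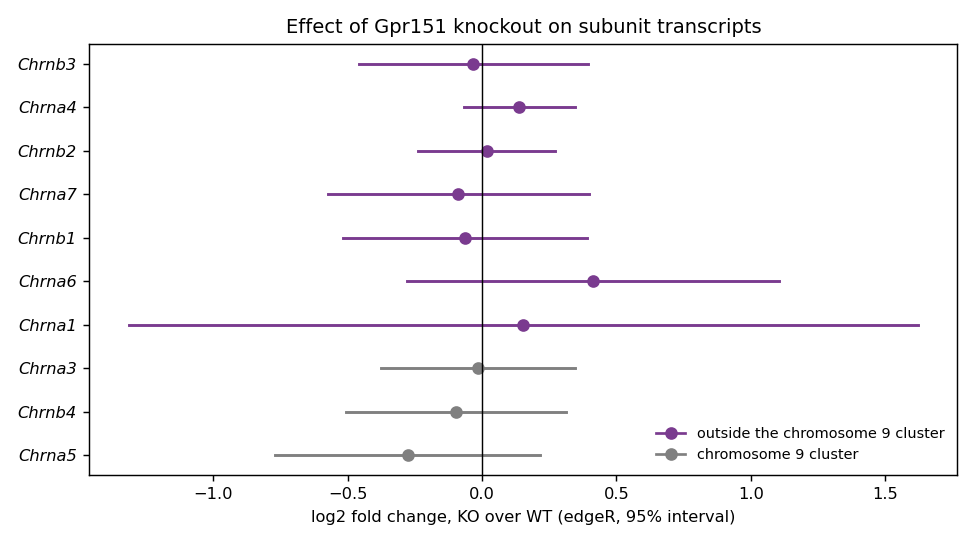
Log2 fold change of knockout over wild type with its 95% interval from the edgeR fit over 14317 genes, for the 7 subunits tested and, in grey, the 3 subunits of the chromosome 9 cluster. Each interval includes 0; that of Chrna4 (-0.07 to 0.34) is the narrowest and that of Chrna1 (-1.31 to 1.62) the widest.

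The cluster subunits beside them had log2 changes of -0.01 for Chrna3, -0.10 for Chrnb4 and -0.28 for Chrna5, and 0 of 3 were called. Of the proteins that fold, traffic or modulate nicotinic receptors, 11 of 14 listed symbols were tested in the same edgeR fit and 0 passed in either direction; 10 lay above 0 and 1 below, with a median of 0.16, beside 7216 of 14317 above 0 among all genes. Of these genes 11 reached 5 CPM, 4 of them were depleted against the input in each genotype, and their median log2 ratio of IP to input was -0.50 in knockout and -0.52 in wild type. The median summed level of astrocyte markers was 408 CPM in knockout libraries and 231 CPM in wild-type libraries, and its part in these values was not tested. The smallest p among them belonged to Lynx1, a membrane-anchored protein that dampens receptor sensitivity, at 0.22 ± 0.12 (SE; adjusted p = 0.999). Of 8 listed genes of acetylcholine synthesis, transport and breakdown 7 were tested and 0 passed, the smallest p being that of Chat, the synthetic enzyme, at -0.38 ± 0.16 (SE; adjusted p = 0.999). The 3 other muscle subunits were too scarce to test.

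As summaries of subunit transcripts, which do not show the receptors that are assembled, 4 measures were compared over libraries. The test was a two-sided exact permutation test of 6 against 6 libraries (smallest possible p 0.00216), adjusted over the 4. The members' share in the 13 subunits was 19.3 ± 3.00% in knockout and 17.9 ± 1.48% in wild type (SD, n = 6 each; exact p = 0.335, adjusted p = 0.671). Chrnb2 made up 3.74% of the Chrnb2, Chrnb3 and Chrnb4 total in knockout and 3.43% in wild type (exact p = 0.541, adjusted p = 0.722), against 19.7% in the input. Chrna6 made up 0.313% of the Chrna3, Chrna4 and Chrna6 total in knockout and 0.226% in wild type (exact p = 0.102, adjusted p = 0.407), against 0.438% in the input. The members' summed level was 131 ± 29.0 CPM per kb in knockout and 127 ± 17.5 CPM per kb in wild type (SD, n = 6 each; exact p = 0.807, adjusted p = 0.807), against 69.2 CPM per kb in the input. With genotype exchanged only within library sets, an alternative chosen after the data were seen, the exact permutation p values were 0.236, 0.486, 0.164 and 0.943 in the same order (smallest possible p 0.00714), adjusted 0.471, 0.648, 0.471 and 0.943. Leaving out 1 library moved the difference in the members' share, 1.41 points, to between 0.473 (without knockout library 1099) and 2.05 points, and that in the Chrnb2 share, 0.315 points, to between 0.0311 (without knockout library 1102) and 0.535 points.

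Within library sets these differences, knockout minus wild type, were 0.483, 0.971 and 1.76 percentage points for the members' share (libraries 682 and 683, libraries 852 and 855, and the 8 later libraries). They were 0.157, 0.381 and 0.338 points for Chrnb2, and -0.0656, 0.265 and 0.0809 points for Chrna6. The summed level differed by -3.20, 31.7 and -1.92 CPM per kb. No set alone can be tested except the later one, whose exact p values were 0.371, 0.686, 0.229 and 0.629 with a smallest possible p of 0.0286. Whether the genotype effect differed between the 4 earlier libraries and the 8 later ones was tested by an interaction term in edgeR: 0 of 14317 genes passed (325 at an unadjusted p of 0.05), and the adjusted p was 1 for each of the 7 members.

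Each member tested for genotype varied more among libraries of 1 genotype, by SD, than between the genotypes' means. In the 8 later libraries the levels of Chrnb3 and Chrna7 ran with the non-neuronal markers. There, the set that holds the 3 libraries with high scores, log2 Chrnb3 was lower where the score was higher (Pearson r = -0.845, exact permutation p = 0.00652, adjusted over 6 members p = 0.0391; Spearman rho = -0.833, exact p = 0.0154, adjusted p = 0.0461). Without libraries 1099 and 1092, the farthest from the median score, r was -0.773 (exact permutation p = 0.05, n = 6). Chrna7 ran the other way (r = 0.802, exact permutation p = 0.0175, adjusted p = 0.0525; rho = 0.881, exact p = 0.00724, adjusted p = 0.0435), and without the same libraries r was 0.737 (exact permutation p = 0.0792, n = 6). The 4 earlier libraries lay apart from the relation of Chrna7: with scores of 1.20 and 1.69, Chrna7 stood at 4.79 and 4.06 CPM in knockout libraries 683 and 855, and with scores of 1.49 and 1.13 at 5.21 and 5.35 CPM in wild-type libraries 682 and 852, above the 4.36 CPM of knockout library 1102. Nor was Chrnb3 lower where the score was higher among the 4 earlier libraries. It stood at 370 and 546 CPM in knockout libraries 683 and 855, and at 397 and 474 CPM in wild-type libraries 682 and 852. In the later libraries, for Chrna4 r was -0.034 (exact permutation p = 0.934), for Chrnb2 -0.532 (p = 0.176), for Chrna6 -0.175 (p = 0.673) and for Chrnb1 0.0037 (p = 0.993).

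These relations were computed after the values had been seen and are relations of CPM, in which every gene shares the library total. Astrocyte markers (8 of 8 measured) summed to 158 to 1774 CPM in knockout and 154 to 978 CPM in wild-type IP libraries, against 2163 CPM in the input. Oligodendrocyte markers (8 of 8) summed to 201 to 1379 CPM in knockout libraries and 144 to 718 CPM in wild-type libraries, against 2944 CPM in the input. The part of these cells' RNA in the levels of Chrnb3 and Chrna7 was not tested.

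**Figure D5:**
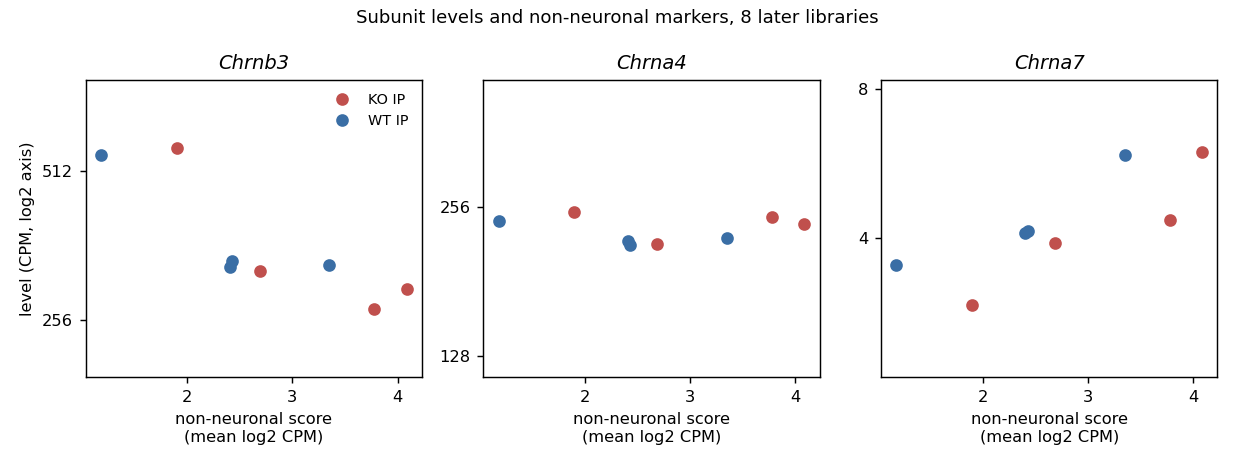
Level of Chrnb3, Chrna4 and Chrna7 (CPM, log2 axis spanning the same fold in each panel) against the non-neuronal score (mean log2 CPM of 31 markers) in the 8 later IP libraries, knockout in red and wild type in blue. Chrnb3 is lower and Chrna7 higher in libraries with a higher score (r = -0.845 and 0.802), and Chrna4 is level (r = -0.034).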

How the data were processed

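The authors deposited, for each library, a table of unnormalized read counts by gene symbol, and the submitters' processing notes name STAR 2.3.0e, HTSeq, DESeq2 and the mm10 build; the sources used here give neither settings nor annotation. Per the labels' protocols, amplified cDNA (Ovation V2 kit) was fragmented and made into libraries. Reads with no gene, ambiguous reads (0.581% to 1.36% of alignments per IP library, 3.98% in the input) and non-unique reads (25.2% to 53.2% per IP library) stayed out of totals.

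The tables list 32531, 24454 or 37328 symbols. CPM used the 22682 in all 13 libraries, which leaves out ribosomal Rn45s (2.25% to 12.6% of gene counts in IP libraries, a symbol absent from the input table). Genotype was tested on the 23857 symbols of the 12 IP libraries with edgeR 4.0.16 (R 4.3.3): TMM, default expression filter, robust quasi-likelihood fit, library set and genotype as terms, Benjamini-Hochberg adjustment over all genes tested, threshold 0.05. Sets follow the library numbers in the labels. DESeq2 1.42.0, other filters, other scaling and libraries left out were alternatives. IP over input used a pseudocount of 1 CPM. The exact permutation tests of the composition measures went through every split of the libraries, and scipy 1.17.1 gave their Benjamini-Hochberg adjustment. The edgeR fit was tested on simulated counts.

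Levels per kb used merged exon lengths, with transcript and coding lengths as alternatives. Positions and lengths came from GENCODE M21 (GRCm38, the mm10 assembly), and coding sequences from the same genome. The score of 31 non-neuronal markers is their mean log2 CPM. Named genes were the 10 members, the cluster subunits, Gpr151, of each pathway list the called genes and the gene with the smallest p, and the 3 genes most like each enriched member. Members and lists were chosen with earlier results of these data known. Replicate numbers follow accession order and pair no libraries.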

Additional observations from a re-analysis of the deposited data

Results flagged for a closer look

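Chrna4 in knockout library 855 stood apart from its group: it reached 354.8 CPM, while the other 5 knockout IP libraries lay between 216 and 266 CPM. Its gap to the nearest of the others exceeded the 95% critical value of Dixon's ratio of gap to range. It was the only value so marked among the 22 sets of 6 libraries checked, and chance marks about 1 in 20. The same library, a pool of 3 mice, also held the highest Chrnb2 level (142 CPM) and the highest Chrna6 level (4.45 CPM) of the 12 IP libraries, and Chrnb3 stood at 546 CPM there. Without it the log2 change of Chrna4 was 0.09.

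The input table lists Chrna1os, a symbol that names the opposite strand of Chrna1, with 51 reads, above the limit of 3 counts that a count of 0 allows. The IP tables do not list this symbol, so no comparison with purified RNA was made, and whether reads of that locus went to Chrna1 in the IP tables was not tested.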

How the results depend on the processing

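No member was called for genotype under any of the 21 alternatives run. The number of genes called among all genes was 2 and became 12 with DESeq2, 1 with a minimum of 1 CPM in 6 libraries, 0 in the 8 later libraries alone, where 331 passed an unadjusted p of 0.05, and 1 without libraries 1099, 1102 and 1091; leaving out 1 library gave 0 to 2, the 0 without knockout library 683. Estimates near 0 changed sign: Chrna1 had -0.51 and Chrnb2 -0.071 in the later libraries alone, and Chrnb3 had 0.040 in the earlier libraries alone, 0.15 when the fit included the non-neuronal score and 0.091 without libraries 1099, 1102 and 1091. With that score in the fit, Chrna7 moved from -0.088 to -0.32, below all its estimates with 1 library left out, and was not called. With 1 library left out at a time, log2 knockout over wild type ranged from -0.39 to 0.47 for Chrna1, -0.25 to 0.025 for Chrna7, -0.055 to 0.065 for Chrnb2 and -0.20 to 0.12 for Chrnb3, across 0 in each, and kept its sign for Chrna4 (0.09 to 0.18), Chrna6 (0.12 to 0.59) and Chrnb1 (-0.16 to -0.01). The members' summed level differed by -1.92 CPM per kb in the later libraries alone and by -5.63 to 8.18 with 1 library left out; of 12 such fits, those without knockout libraries 855 and 1100 gave a negative difference. The cause of these changes was not tested. In wild type over input, a 3-fold rule gave 273 enriched and 623 depleted genes in place of 538 and 1274, and edgeR gave 1175 enriched; with 1 library left out the counts were 540 to 676 and 1285 to 1664. The edgeR count did not use the rule over every library, so it cannot be compared directly with 538. In that fit Chrnb2 (log2 0.85 ± 0.27, SE) passed the adjusted threshold of 0.05, as did Chrnb3 (3.47 ± 0.54). Chrnb3 was thus the only enriched member by the rule but not by edgeR. Its errors assume that the single input varies like the IP libraries, so no conclusion on Chrnb2 is drawn from it. Knockout libraries without 1099 and 1102 gave 629 enriched and 1523 depleted genes in place of 389 and 810 by the rule. As the rule asks every library to pass, leaving libraries out could only keep or add calls among genes that still reached 5 CPM. The direction of these shifts was therefore set by the rule, and Chrnb3 had to stay enriched. Depth limits Chrna2, Chrna9 and Chrna10, whose 0 to 4 reads per IP library lie near the 3 counts that a count of 0 allows. It also limits Chrna1, whose 2 to 41 reads per IP library leave a wide interval. The single input leaves its own variation unmeasured. No paired analysis was possible because the labels give no replicate numbers; library set, which is no pairing, was a term in the genotype fit and gave the within-set permutation p values of the composition measures.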
